A study of Mus musculus with 24 samples.

Results

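Endothelial cells and mesenchymal stromal cells from resting mouse muscle were compared across all genes measured. Both populations carry the surface protein Sca1, which was part of the gate for 1 of them. The comparison used 6 of the 24 libraries of the series, picked by their labels: the 3 libraries of CD31+ cells and the 3 libraries of MSC (mesenchymal stromal cells) from uninjured muscle. All came from the hindlimb skeletal muscle of C57BL/6 mice aged 8 weeks, and the labels name neither an engineered allele nor an agent for these groups. CD31+ cells were collected on CD31 and are labelled endothelial. MSC were collected as cells without CD45 or CD31 that carried both Sca1 and PDGFRa. Another 4 groups of 3 libraries, from mice of the same strain and age, served as reference. These were uninjured CD45+ (hematopoietic) cells, uninjured satellite cells (MuSC, sorted on Vcam1 and without CD45, CD31 or Sca1), and CD31+ cells and MSC taken 1 day after cardiotoxin, a venom toxin that destroys muscle fibers. Per the labels, each library held RNA of 1000 cells that were sorted and then sorted once more. Each group's 3 libraries are biological replicates by their labels, which are silent on pooling of animals and on whether equal numbers mark the same mouse. The p-values given here therefore measure spread between libraries. That spread was estimated within all 8 groups of the series fitted together, also injured CD45+ cells and injured MuSC. It is thus not the spread of the 6 compared libraries alone.

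Endothelial cells line the vessels of muscle. They form a barrier of adherens and tight junctions, hand fatty acids from the blood to the fibers, and are governed by VEGF, angiopoietin and Notch signals. Stromal cells with PDGFRa, also known as fibro-adipogenic progenitors, lie in the interstitium between vessels and fibers, build its collagen matrix, and can become fibroblasts or adipocytes.

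The sort markers were read first, as a description of the sort. Levels are in CPM, the count of a gene per 1e6 counts of the scaled library size, and they are compared between populations for 1 gene at a time, since they are not corrected for gene length. Pecam1 (chr11:106654217-106750628, GENCODE vM21 on GRCm38), which encodes CD31, measured 2222, 1930.0 and 2003 CPM in the CD31+ libraries and 1.51, 0.672 and 0.444 CPM in the MSC libraries. Pdgfra (chr5:75152292-75198215) stood at 2.98, 1.98 and 1.77 CPM in CD31+ cells and at 607, 526 and 572 CPM in MSC. Each of these genes was thus high in every library of its own population and at most 2.98 CPM in any library of the other. Ptprc, which encodes CD45, reached 2.13, 1.41 and 3.83 CPM in CD31+ cells and 1.34, 0.224 and 0 CPM in MSC and did not pass the test (adjusted p = 0.095). A library's total was between 3245117 and 4650542 counts for CD31+ cells and between 5128365 and 7649841 for MSC. A count of 0 in a single library therefore allows up to 0.503 to 0.884 CPM (3 counts), and such limits cover counting error only.

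Of 16263 genes tested with edgeR's quasi-likelihood test, 3707 were higher in CD31+ cells (22.8%) and 3936 were higher in MSC (24.2%) at an adjusted p below 0.05. The share called in either direction was 47.0%, and the median log2 difference over all genes, CD31+ minus MSC, was 0.06. More than 8-fold differences were found for 1137 genes higher in CD31+ cells (6.99%) and 1386 genes higher in MSC (8.52%). The libraries of the 2 populations did not overlap for 8797 genes (54.1%). Correlations of log2 levels were 0.953 to 0.975 between libraries of 1 population and 0.678 to 0.703 between libraries of different populations. For sorted pools such as these, fewer cells with a transcript and less of it per cell cannot be told apart.

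**Figure D1:**
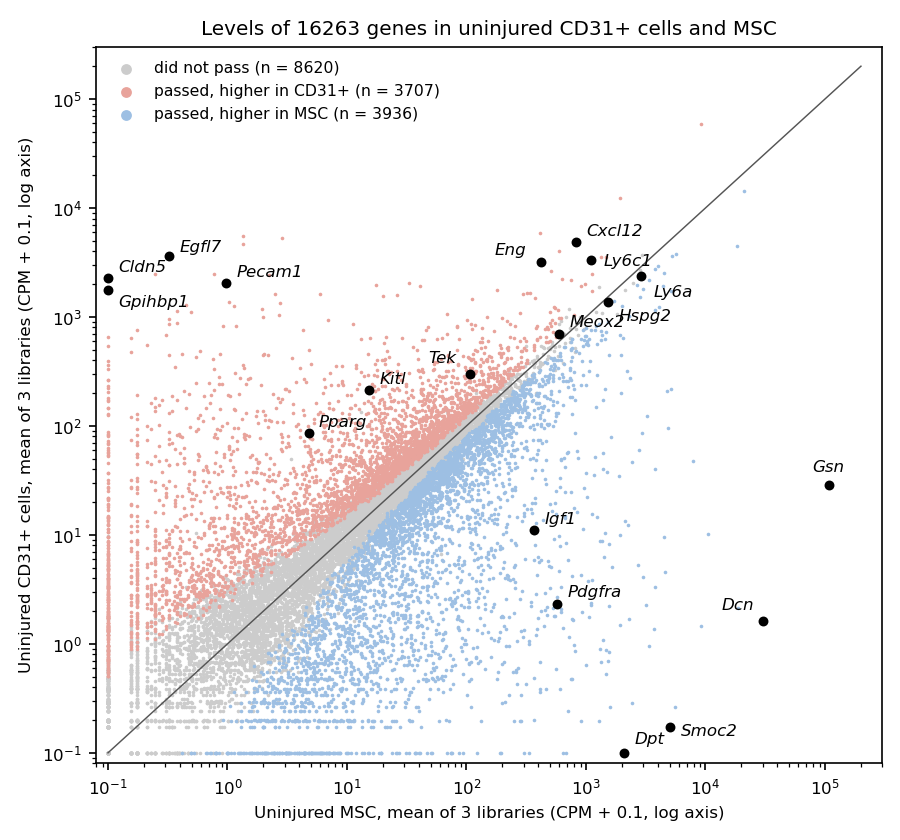
Mean level of each of 16263 genes in 3 libraries of uninjured MSC (horizontal axis) and 3 libraries of uninjured CD31+ cells (vertical axis), in CPM + 0.1 on log axes. Red points (n = 3707) passed as higher in CD31+ cells, blue points (n = 3936) as higher in MSC, and grey points did not pass. Ly6a, Meox2 and Hspg2 lie near the line of equal levels, while Gsn and Dcn are at the far right and Cldn5 at the upper left.

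Ly6a (chr15:74994877-74998031), the gene of Sca1, measured 2278, 2145 and 2680.0 CPM in CD31+ cells and 3134, 2790.0 and 2733 CPM in MSC. The libraries of MSC all lay above those of CD31+ cells, but the log2 difference of -0.29 ± 0.37 (SE) did not pass (adjusted p = 0.564). Its 95% interval of -1.02 to 0.44 reached just past a 2-fold difference in favour of MSC. Ly6a stood at 0.196 CPM in MuSC, which were sorted as cells without Sca1, and at 74.3 CPM in CD45+ cells. The level in MSC against MuSC was thus set by the sort. The Ly6 relatives were less even: Ly6c1 and Ly6e, which encode GPI-anchored surface proteins of the same family, were higher in CD31+ cells, by 3.02-fold (adjusted p = 0.00135) and 5.16-fold (adjusted p = 3.11e-15). Gpihbp1, the family member that holds lipoprotein lipase on capillary walls, had no count in any MSC library. Among 13 family members tested, 6 were higher in CD31+ cells, Ly6k alone was higher in MSC at a level of 1.95 CPM, and 6 did not pass. Over all genes tested, 22.8% were higher in CD31+ cells and 24.2% in MSC, 47.0% in either direction, so the family's total of calls was near the general share.

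What else the populations held in common was counted against the reference populations. Both CD31+ cells and MSC were higher than both MuSC and CD45+ cells for 700 genes (4.3% of those tested), of which 440 differed by over 2-fold in all 4 comparisons. Of the 700, 263 were also higher in CD31+ cells than in MSC and 141 were higher in MSC. Meox2, a homeobox gene expressed in vascular and mesenchymal cells, was read at 627, 729.6 and 755 CPM in CD31+ cells and 603, 634 and 559.8 CPM in MSC, against 0.815 CPM in MuSC and 3.56 CPM in CD45+ cells. The libraries of CD31+ cells and MSC overlapped for Meox2 (log2 difference 0.23 ± 0.43, interval -0.60 to 1.07). Pcdh19, a protocadherin adhesion gene, also overlapped, with 59.7, 72.3 and 64.3 CPM in CD31+ cells and 76.6, 69.4 and 69.8 CPM in MSC, against 0.502 CPM in MuSC and 0.255 CPM in CD45+ cells. Fbln5, an elastic fiber protein, averaged 522 ± 104 CPM (SD, n = 3) in CD31+ cells and 803 ± 28.1 CPM in MSC and did not pass between them (adjusted p = 0.0649). Sparcl1, a secreted matrix protein of the SPARC family, was shared too but 2.65-fold higher in CD31+ cells (adjusted p = 0.0113), and Ldb2, a LIM domain-binding cofactor, was 2.83-fold higher there (adjusted p = 0.000882). Procr, the endothelial protein C receptor, was 7.11-fold higher in MSC (adjusted p = 1.99e-06), with 0.5 CPM in MuSC and 0.654 CPM in CD45+ cells.

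Levels were shown to lie within 2-fold of each other for 801 genes (4.93% of those tested), 69.0% of the 1161 genes with at least 100 CPM in both populations. Here the 95% interval of the difference had to sit inside that range. Of the same 1161 genes, 707 passed the test for a difference. The 2 counts share genes, so a level within 2-fold does not mean that no difference was called. Actb, a cytoskeletal actin, measured 2745, 2974 and 2409 CPM in CD31+ cells and 2811, 2675 and 3002 CPM in MSC. Cd81, a tetraspanin, averaged 3693 and 2942 CPM, and Myadm, a membrane protein, 1103 and 1208 CPM. Hspg2, which encodes perlecan, the heparan sulfate proteoglycan of basement membranes, measured 1358, 1345 and 1379 CPM in CD31+ cells and 1394, 1482 and 1735 CPM in MSC. Its interval was -0.94 to 0.59 on the log2 scale. Ltbp4, a TGF-beta binding protein of the matrix, averaged 2048 ± 395 and 2460.5 ± 951 CPM, with overlapping libraries.

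All 14 genes of the endothelial identity list were higher in CD31+ cells (median log2 difference 11.11) and all 15 of the stromal list were higher in MSC (median -10.47). Several of these genes serve as markers of the sorts, so the counts describe the populations. Their levels in the opposite population were not alike. Cdh5 (VE-cadherin, the main adherens junction protein) and Esam (an endothelial adhesion molecule) gave 1 and 2 counts over the 3 MSC libraries. Cldn5 (chr16:18776847-18778262), a tight junction claudin, measured 2013, 2657 and 2093 CPM in CD31+ cells and 0 in each MSC library, at least 11111-fold higher (adjusted p = 9.51e-09). Eng and Tek were read in every MSC library. Eng (chr2:32646595-32682669), the endoglin coreceptor for BMP9, measured 3615, 2714 and 3318 CPM in CD31+ cells and 407, 391 and 450.5 CPM in MSC, a 7.72-fold difference (log2 2.95 ± 0.19, adjusted p = 8.65e-12). Tek (chr4:94739289-94874976), the angiopoietin receptor Tie2, measured 323, 258 and 326 CPM in CD31+ cells and 113, 116 and 93.5 CPM in MSC, 2.82-fold higher in CD31+ cells (log2 1.49 ± 0.34, adjusted p = 0.00121). Tie1, the orphan partner receptor of Tek, measured 1274, 963 and 1115 CPM in CD31+ cells and 1.17, 0 and 0 CPM in MSC.

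The largest differences with at least 50 CPM in the higher population were mostly between a clear level and no count. In CD31+ cells these included Sox17, Podxl, Gja4, Gpihbp1, Gimap1, Gimap4, Myct1, Adgrg1, Sigirr and Slc28a2, each with 0 counts in all 3 MSC libraries. Slc28a2, a concentrative nucleoside transporter, measured 263, 258 and 268 CPM in CD31+ cells and was at least 1308-fold higher (adjusted p = 4.06e-13). Adgrg1, an adhesion G protein-coupled receptor, measured 664, 597 and 717 CPM, at least 3283-fold higher (adjusted p = 5.29e-14). The GTPases Gimap1 and Gimap4 averaged 264 ± 10.9 and 329.9 ± 24.6 CPM.

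In MSC the largest differences were led by secreted proteins. Dpt (chr1:164796644-164824266), the matrix protein dermatopontin, measured 2287, 2242 and 1670.5 CPM in MSC and 0 in each CD31+ library, at least 8098-fold higher (adjusted p = 2.87e-11). Srpx, a sushi repeat protein, averaged 641 ± 175 CPM and Vit, the matrix protein vitrin, 190.1 ± 44.6 CPM, both without a count in CD31+ cells. Gsn (chr2:35256380-35307892), the actin-severing protein gelsolin, took the largest share of counts in MSC. It measured 121340.0, 108457 and 96675 CPM there and 30.6, 38.4 and 16.8 CPM in CD31+ cells, a 3792-fold difference (log2 -11.89 ± 0.38, adjusted p = 2.09e-14). Reads of Gsn made up 9.47%, 8.92% and 8.49% of all counts in the 3 MSC libraries. Decorin (Dcn), a collagen-binding proteoglycan, measured 32838, 29749 and 27836 CPM in MSC and 0, 2.82 and 1.77 CPM in CD31+ cells (adjusted p = 1.82e-05). MSC replicate 3 held less of some matrix and Wnt inhibitor genes than the others: Sfrp4 measured 1820.2, 1629 and 404 CPM, Sfrp2 1226, 1267 and 238 CPM and Col3a1 21905, 21115 and 12690.0 CPM. In each of these the lowest MSC library was still far above every CD31+ library.

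Transcription factors of the endothelial list were higher in CD31+ cells for 17 of 24 tested (median log2 difference 5.61), 6 did not pass, and Klf4 was higher in MSC. Fli1, an ETS family factor of blood and endothelium, measured 234, 251 and 276 CPM in CD31+ cells and 4.52, 2.46 and 4 CPM in MSC, 67.7-fold higher (log2 6.08 ± 0.27, adjusted p = 1.45e-14). Its relative Elk3 was 22.5-fold higher (adjusted p = 5.47e-12). Epas1, the hypoxia-inducible factor HIF-2alpha, measured 1786, 1372 and 1657 CPM in CD31+ cells and 26.6, 21.7 and 29.8 CPM in MSC, 61.5-fold higher (log2 5.94 ± 0.21, adjusted p = 4.77e-16). The 3 libraries of each population were close together for all of these and did not overlap. Sox17, an arterial factor of the SRY box family, measured 378, 353 and 364 CPM in CD31+ cells, at least 1824-fold higher (adjusted p = 1.44e-11). Tcf15, a helix-loop-helix partner of Meox2 in endothelial fatty acid uptake, measured 76.9, 50.3 and 75.5 CPM, at least 340.5-fold higher (adjusted p = 5.27e-11), while Meox2 did not pass. Hhex, a homeobox gene of early endothelium, measured 139, 126 and 124 CPM in CD31+ cells and gave 1 count over the MSC libraries. For such genes with 1 to 3 counts in the lower population, the ratio of counts scaled by library size is given with an interval that covers counting error only, and for Hhex it was 1954 (95% interval 350.2 to 77238). Klf4, which is known for its response to shear stress, measured 70.6, 68.4 and 71.3 CPM in CD31+ cells and 216, 188 and 232 CPM in MSC, 3.02-fold higher in MSC (adjusted p = 4.16e-08). Nr2f2, Lmo2 and Hes1 were among the members that did not pass.

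Stromal transcription factors were higher in MSC for 18 of 25 tested (median log2 difference -4.29), 5 did not pass, and Pparg and Foxc1 were higher in CD31+ cells. Prrx1, a homeobox gene of limb mesenchyme, measured 143, 147 and 136 CPM in MSC and 2.98, 2.82 and 0.884 CPM in CD31+ cells, 61.1-fold higher in MSC (log2 -5.93 ± 0.36, adjusted p = 2.51e-12). Osr2, an odd-skipped zinc finger gene, averaged 71.9 ± 4.1 CPM in MSC against 1 count over the CD31+ libraries, a counting ratio of 835 (95% interval 149 to 32998). The T-box gene Tbx15 and the Hedgehog effector Gli2 averaged 62.5 ± 8.74 and 45.4 ± 4.91 CPM in MSC and each stayed below 2 CPM in every CD31+ library. Pparg, the fatty acid-responsive nuclear receptor that drives adipogenesis, measured 85.9, 62.7 and 109.9 CPM in CD31+ cells and 5.53, 5.82 and 2.67 CPM in MSC. It was 18.2-fold higher in CD31+ cells (log2 4.19 ± 0.34, adjusted p = 2.68e-10), with no overlap. In the adipogenic list of 10 tested genes, 6 were higher in MSC, among them Zfp423, a zinc finger regulator of preadipocytes (2.44-fold, adjusted p = 0.000985), and Pparg was the only member higher in CD31+ cells. Cebpb and Cebpd also passed as higher in MSC (adjusted p = 0.0384 and 0.0465). Their calls were lost in 8 and 7 settings, with an adjusted p of up to 0.349 and 0.441. Foxc1 averaged 2.7 ± 0.641 CPM in CD31+ cells and 0.372 ± 0.341 CPM in MSC (adjusted p = 0.0198). Its call was lost without CD31+ replicate 1 or 3 and without MSC replicate 2 or 3, with an adjusted p of up to 0.0793 for Foxc1, and at 0.0975 with no filter on low counts.

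**Figure D2:**
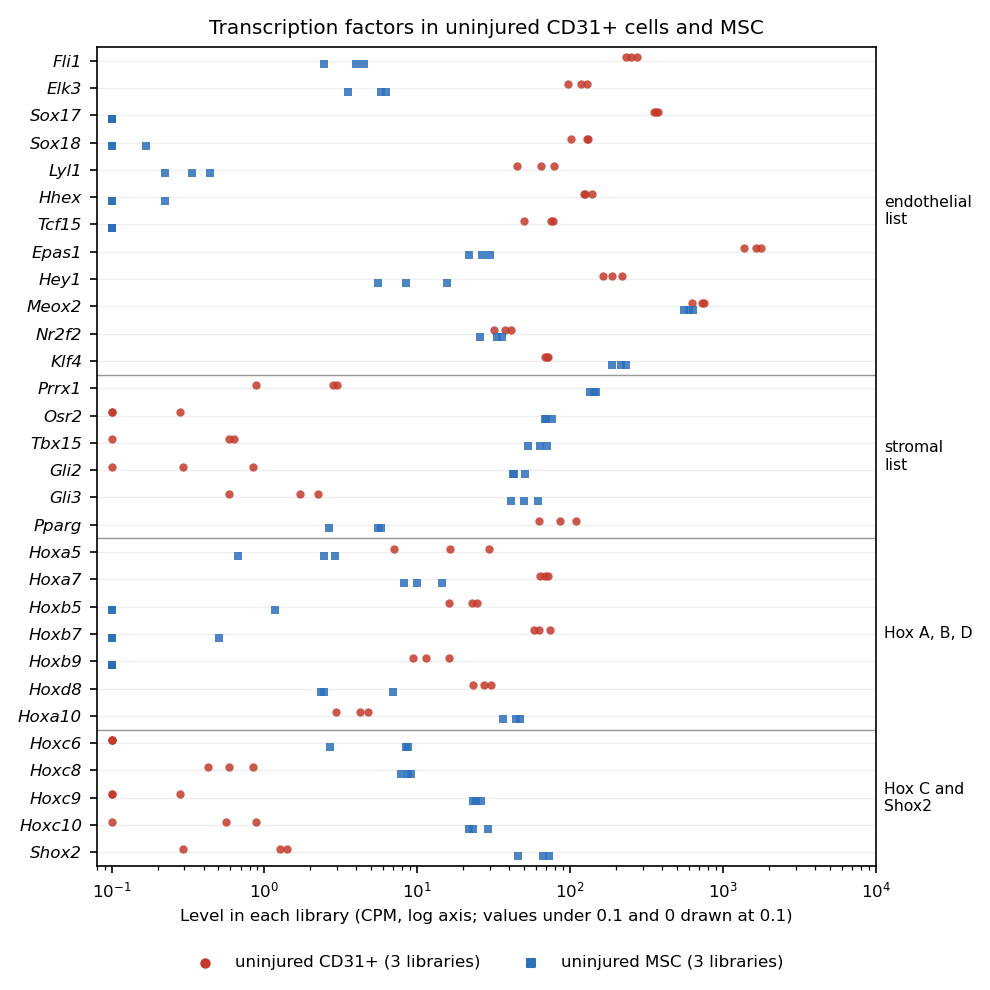
Level of transcription factors in each of the 3 CD31+ and 3 MSC libraries, in CPM on a log axis, 1 point per library, with values below 0.1 drawn at 0.1. Fli1, Epas1 and Pparg are higher in the CD31+ libraries, Prrx1 and Klf4 in the MSC libraries, and the points of Meox2 overlap.

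Genes that mark position along the body and limb axes split between the populations. Of 21 Hox and limb genes tested, 7 were higher in CD31+ cells, 12 were higher in MSC and 2 (Hoxa9 and Hoxd9) did not pass; the median log2 difference was -3.23, or -3.10 with genes without counts placed at their bound. Hoxb genes were on the endothelial side: Hoxb7 measured 74, 58.5 and 62.5 CPM in CD31+ cells and 0.503, 0 and 0 CPM in MSC, a counting ratio of 328 (95% interval 112 to 1594), adjusted p = 8.05e-09. Hoxb9 averaged 12.3 ± 3.42 CPM in CD31+ cells and had no count in MSC, at least 61.2-fold higher (adjusted p = 5.68e-06). The Hoxc genes named were on the stromal side: Hoxc9 measured 23.3, 26 and 24.2 CPM in MSC and 0, 0.282 and 0 CPM in CD31+ cells, a counting ratio of 284 (95% interval 50.6 to 11235), adjusted p = 8.48e-11. Hoxc6 and Hoxc8 were higher in MSC as well, with adjusted p-values of 9.36e-06 and 9.14e-06. Within the Hoxa cluster the direction differed. Hoxa7 measured 63.8, 69.2 and 71.3 CPM in CD31+ cells and 8.21, 14.6 and 10.0 CPM in MSC (6.26-fold higher in CD31+ cells, adjusted p = 6.41e-08). Hoxa10 measured 4.25, 4.8 and 2.95 CPM and 47.3, 36.7 and 44.4 CPM (10.6-fold higher in MSC, adjusted p = 3.75e-08). Shox2, a limb homeobox gene, averaged 61.8 ± 14 CPM in MSC and 0.994 ± 0.61 CPM in CD31+ cells, 59.1-fold higher in MSC (adjusted p = 2.32e-08). Reads of antisense genes in the Hox clusters cannot be separated from the coding genes, since the library kit does not mark strand.

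ETS factors such as Fli1 bind sites around the core GGAA, and promoters of 2 genes higher in CD31+ cells are shown because both hold a longer form of that core. The sequences are the 250 bases before the RefSeq start on GRCm38.p6, given 5′ to 3′ along the gene's strand, with AGGAAG or its reverse complement CTTCCT in capitals. Eng is at chr2:32646345-32646594 on the plus strand and Flt1, a VEGF receptor gene, at chr5:147726012-147726261 on the minus strand.
Eng: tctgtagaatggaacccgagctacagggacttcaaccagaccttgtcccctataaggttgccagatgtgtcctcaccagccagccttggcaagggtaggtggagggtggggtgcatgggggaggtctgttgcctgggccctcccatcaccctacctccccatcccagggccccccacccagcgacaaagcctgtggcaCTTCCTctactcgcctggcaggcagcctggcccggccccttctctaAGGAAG
Flt1: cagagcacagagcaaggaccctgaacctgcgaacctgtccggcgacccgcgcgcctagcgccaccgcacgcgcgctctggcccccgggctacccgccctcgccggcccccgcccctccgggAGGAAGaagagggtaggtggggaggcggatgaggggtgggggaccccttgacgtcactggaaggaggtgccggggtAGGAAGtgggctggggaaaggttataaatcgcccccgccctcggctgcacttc
Each of these promoters held the motif at 2 places. Over 250 bases and both strands it was found in 6 of 9 endothelial identity promoters in the table (66.7%), in 2 of 10 stromal identity promoters and in 28.6% of 11347 promoters of tested genes. Among genes over 8-fold higher in CD31+ cells the share was 34.6% of 732, and among genes over 8-fold higher in MSC it was 27.3% of 929. Another 3 motifs were searched in the same windows. CCAAT (both strands) was in 31.0% of the promoters on the CD31+ side and 32.3% on the MSC side. The AP-1 motif TGANTCA (both strands) was in 6.01% and 6.67%, and TATAAA (given strand) in 5.74% and 7.43%. The shares over all promoters of tested genes were 35.6%, 4.53% and 4.27%. A match describes letters in these windows and is not a measured binding site.

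Ligands and receptors of the vascular growth factor families were divided between the populations. For VEGF, all 5 receptors were higher in CD31+ cells (median log2 difference 9.59), while 4 of 5 ligands were higher in MSC. Vegfd, a ligand of Flt4, measured 48.4, 52.2 and 17.8 CPM in MSC and 0.213, 0.847 and 0 CPM in CD31+ cells (adjusted p = 3.44e-07). Pgf, placental growth factor, averaged 55.3 ± 12.6 CPM in MSC and 12.2 ± 8.62 CPM in CD31+ cells (adjusted p = 9.94e-05). Vegfb averaged 7.99 ± 1.71 and 2.08 ± 1.41 CPM (3.66-fold higher in MSC, adjusted p = 0.00136). Vegfa was low in both, at 1.17, 4.03 and 2.44 CPM in MSC and 0.425, 0.282 and 0.295 CPM in CD31+ cells, and its call (adjusted p = 0.0108) was lost without MSC replicate 2, at 0.0763. Vegfc, the lymphatic growth factor, was the exception, with 179.6, 137 and 126 CPM in CD31+ cells and 22.8, 25.5 and 20.2 CPM in MSC, 6.46-fold higher in CD31+ cells (log2 2.69 ± 0.34, adjusted p = 4.98e-07).

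The VEGF receptors differed in how far MSC lacked them. Kdr, the main signalling receptor, measured 904, 752 and 845 CPM in CD31+ cells and 1.34, 0.448 and 0.666 CPM in MSC. Flt4, the receptor of Vegfc and Vegfd, averaged 174 ± 31.6 CPM in CD31+ cells and gave 3 counts over the MSC libraries, a counting ratio of 879.8 (95% interval 301 to 4269.8). The neuropilin coreceptors were read in both populations. Nrp1 measured 1686, 1422 and 1769 CPM in CD31+ cells and 307, 314 and 273 CPM in MSC, 5.45-fold higher in CD31+ cells (log2 2.45 ± 0.23, adjusted p = 1.3e-08). Nrp2 was 12.1-fold higher in CD31+ cells (adjusted p = 1.37e-12).

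For the angiopoietins, Angpt1, the agonist of Tie2, measured 20.4, 22.4 and 14 CPM in MSC and 0.638, 0.565 and 0 CPM in CD31+ cells, 42.4-fold higher in MSC (adjusted p = 1.03e-06). Angpt4, another Tie2 ligand, was 173-fold higher in MSC (adjusted p = 6.46e-09). Angpt2, which endothelial cells store and release, measured 114, 63 and 107 CPM in CD31+ cells and 19.9, 37.6 and 6.66 CPM in MSC and was higher in CD31+ cells (log2 2.15 ± 0.40, adjusted p = 0.000188; 2.94 without MSC replicate 2). The libraries of Angpt2 did not overlap, but MSC replicate 2 came nearest to the CD31+ range. Apelin (Apln) and its receptor (Aplnr) were both higher in CD31+ cells. Aplnr measured 794, 851 and 633 CPM there and 2.85, 4.48 and 5.11 CPM in MSC, 186-fold higher (adjusted p = 3.74e-13), and Apln averaged 29.2 ± 16.6 and 3.69 ± 2.05 CPM (adjusted p = 0.000865). The angiopoietin-like genes Angptl1 and Angptl2 averaged 460.3 ± 76.9 and 589.9 ± 73.3 CPM in MSC and 0.282 ± 0.489 and 9.76 ± 2.9 CPM in CD31+ cells, with adjusted p-values of 2.21e-12 and 1.73e-12.

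Platelet-derived growth factors ran the other way. Pdgfb, which recruits pericytes to vessels, measured 122, 127 and 147 CPM in CD31+ cells and gave 3 counts over the MSC libraries, a counting ratio of 649.7 (95% interval 222 to 3154), adjusted p = 4.62e-14. Pdgfd, a ligand of the same receptor, was 4.11-fold higher in CD31+ cells (adjusted p = 0.000141). Its receptor gene Pdgfrb averaged 227 ± 23.1 CPM in MSC and 29.3 ± 7.13 CPM in CD31+ cells, 7.72-fold higher in MSC (adjusted p = 1.21e-07). Pdgfa averaged 19.2 ± 3.58 and 10.5 ± 1.21 CPM in CD31+ cells and MSC (adjusted p = 0.0098; 0.0605 with limma voom). Pdgfc, a ligand of PDGFRa, measured 13.6, 20.8 and 7.11 CPM in MSC and 0, 0 and 1.18 CPM in CD31+ cells (adjusted p = 5.43e-06). Thus Pdgfc was the only 1 of the 4 ligands that was higher in the population with the receptors.

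The 4 Notch ligands tested were all higher in CD31+ cells (median log2 difference 8.41). Dll4, the arterial and tip cell ligand, measured 444, 445 and 532 CPM in CD31+ cells and gave 1 count over the MSC libraries, a counting ratio of 7019 (95% interval 1259 to 277279). Jag1 was read in every MSC library, with 105, 109 and 93.1 CPM in CD31+ cells and 51.4, 71.7 and 64.6 CPM in MSC, 1.64-fold higher in CD31+ cells (log2 0.71 ± 0.23, adjusted p = 0.0124). Receptors were split by paralog. Notch1 measured 376, 345 and 495 CPM in CD31+ cells and 13.9, 20.6 and 26.9 CPM in MSC, 19.9-fold higher in CD31+ cells (log2 4.32 ± 0.22, adjusted p = 1.73e-13). Notch2 measured 17, 11 and 12.1 CPM in CD31+ cells and 331, 283 and 263 CPM in MSC, 21.6-fold higher in MSC (log2 -4.43 ± 0.19, adjusted p = 4.84e-15). Among target genes, Nrarp and Hey1 were higher in CD31+ cells (adjusted p = 1.01e-06 and 1.58e-11). Hes1, Heyl and Hey2 did not pass, and Hes1 measured 20.4, 32.5 and 52.2 CPM in CD31+ cells and 15.2, 28.9 and 68.9 CPM in MSC. Notch3, a receptor of vascular smooth muscle and pericytes, was 7.11-fold higher in CD31+ cells (adjusted p = 2.62e-08). Of 14 pericyte and smooth muscle genes, 8 were higher in CD31+ cells and 4 in MSC, and their summed levels were 679.7 to 975 CPM and 666 to 868 CPM. Rgs5 measured 235, 226 and 111 CPM and Myh11 106, 57.3 and 55.4 CPM in CD31+ cells, against 1.17, 0.448 and 1.11 CPM and 1.51, 1.34 and 0.444 CPM in MSC. Steap4 measured 516, 582 and 407 CPM in MSC and 21, 24.6 and 11.5 CPM in CD31+ cells. Their part in the Notch3 result was not tested.

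**Figure D3:**
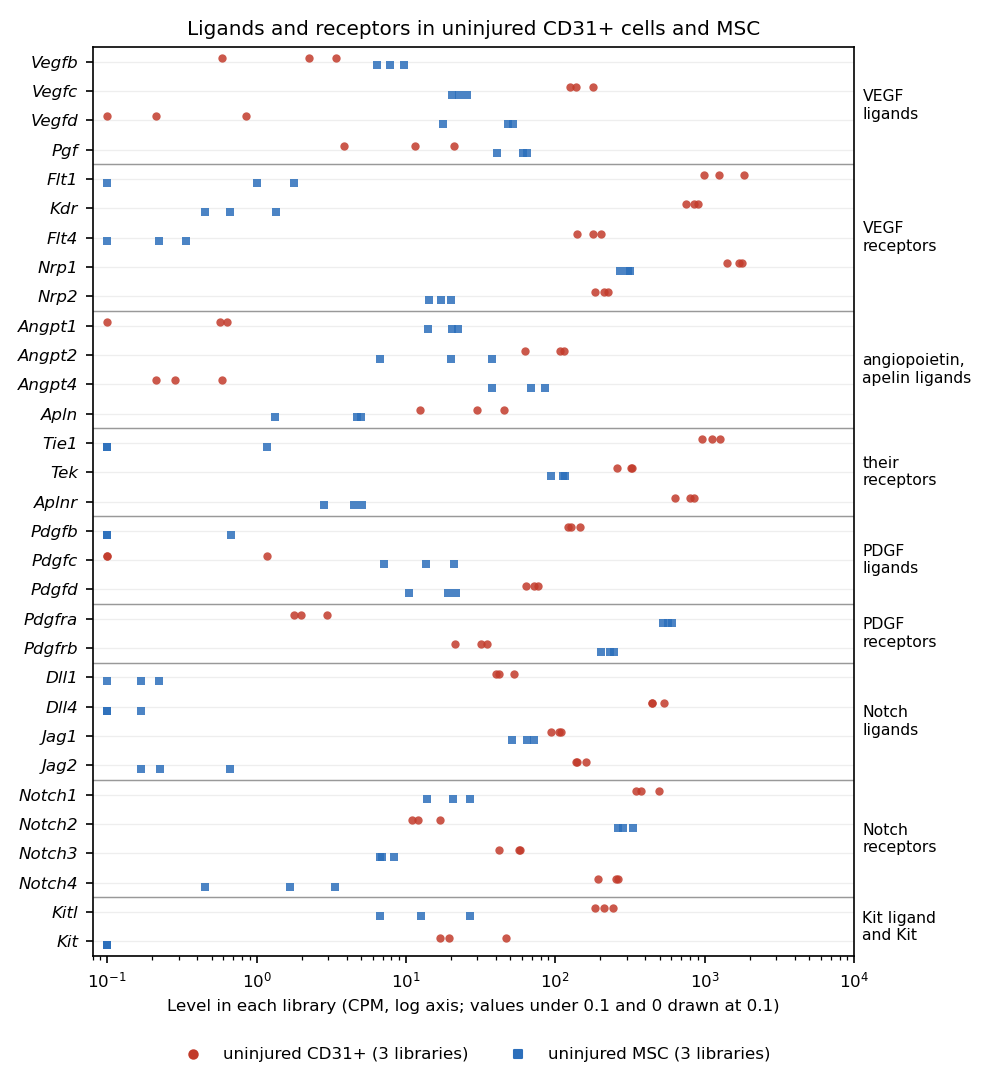
Level of ligands and receptors of the VEGF, angiopoietin, apelin, PDGF, Notch and Kit families in each of the 3 CD31+ and 3 MSC libraries, in CPM on a log axis, 1 point per library, with values below 0.1 drawn at 0.1. Kdr, Dll4 and Pdgfb are high in the CD31+ libraries and under 2 CPM in MSC. Pdgfra is high in MSC, with a mean of 2.24 CPM in the CD31+ libraries, and Notch1 and Notch2 differ in opposite directions.

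For TGF-beta and BMP signals, 9 of 13 ligands tested were higher in MSC (median log2 difference -3.33), while Bmp6 and Tgfb1 were higher in CD31+ cells and Gdf11 and Inhbb did not pass. Bmp6, an endothelial regulator of hepcidin in liver, measured 126, 76.8 and 141 CPM in CD31+ cells and 15.4, 22.4 and 21.5 CPM in MSC, 5.81-fold higher in CD31+ cells (log2 2.54 ± 0.30, adjusted p = 1.49e-07). Gdf10 measured 893, 903 and 492 CPM in MSC and 0, 1.13 and 0 CPM in CD31+ cells (adjusted p = 6.68e-08), with the lowest MSC level in replicate 3. Tgfb3 averaged 139 ± 24.1 and 13.5 ± 5.95 CPM, 10.1-fold higher in MSC (adjusted p = 2.84e-08). Receptors were split. Acvrl1, the endothelial type I receptor ALK1, averaged 470.3 ± 61.2 CPM in CD31+ cells and 189.7 ± 11.9 CPM in MSC (2.48-fold higher in CD31+ cells, adjusted p = 3.03e-07). Tgfbr2 averaged 580.5 ± 63.5 CPM in MSC and 132 ± 16.4 CPM in CD31+ cells (4.39-fold higher in MSC, adjusted p = 7.17e-09). Id1, a BMP target, measured 154, 176 and 227 CPM in CD31+ cells and 14.7, 17.5 and 17.1 CPM in MSC, 11.3-fold higher in CD31+ cells (adjusted p = 1.77e-08). Fst, the activin antagonist follistatin, measured 136, 242 and 211 CPM in MSC and under 1 CPM in each CD31+ library (adjusted p = 5.67e-08).

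No Wnt ligand was higher in CD31+ cells: 9 of 11 tested were higher in MSC, and Wnt2b and Wnt4 did not pass. Wnt5a measured 53.5, 53.1 and 38.4 CPM in MSC and gave 3 counts over the CD31+ libraries, a counting ratio of 189 (95% interval 64.5 to 920.4), adjusted p = 1.73e-07. Wnt11 and the Wnt amplifier Rspo3 each gave 1 count in CD31+ cells and averaged 16.9 ± 2.66 and 13.2 ± 4.68 CPM in MSC. Parts of the receptor complex for the Wnt-like ligand norrin were instead higher in CD31+ cells. Tspan12 measured 359, 266 and 273 CPM in CD31+ cells and 28, 24.4 and 32 CPM in MSC (10.6-fold, log2 3.41 ± 0.22, adjusted p = 4.94e-12). Lrp5 was 4.7-fold (adjusted p = 7.08e-08) and Fzd4 1.86-fold (adjusted p = 0.00321) higher in CD31+ cells. Fzd6 measured 37.4, 29.4 and 28.3 CPM in CD31+ cells and 0 in every MSC library, at least 161-fold higher (adjusted p = 7e-08). The secreted inhibitors Sfrp1, Sfrp2 and Sfrp4 were higher in MSC, and Sfrp1 had no count in CD31+ cells against 81.8, 95 and 43.8 CPM in MSC (adjusted p = 4.8e-09).

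Among other growth factors, Igf1 measured 395, 378 and 331 CPM in MSC and 11.7, 15.8 and 5.31 CPM in CD31+ cells, 33.3-fold higher in MSC (log2 -5.06 ± 0.43, adjusted p = 9.37e-09). Its receptor Igf1r and the insulin receptor Insr were 1.73-fold and 2.09-fold higher in CD31+ cells (adjusted p = 0.00534 and 8.09e-05). Igf2 was low in both and 8.97-fold higher in CD31+ cells (adjusted p = 0.000441). Igfbp5 and Igfbp4, which bind IGF outside the cell, averaged 855 ± 200.3 and 2350.5 ± 277 CPM in MSC, 16.7-fold and 8.45-fold higher than in CD31+ cells (adjusted p = 6.22e-08 and 1.08e-05). Fgf7, an epithelial growth factor, measured 103, 133 and 94.2 CPM in MSC and gave 2 counts over the CD31+ libraries, a counting ratio of 636 (95% interval 176 to 5252). Fgfr1 was 16.2-fold higher in MSC (adjusted p = 2.94e-11). Fgfr3 averaged 78.4 ± 5.46 CPM in CD31+ cells and 1.29 ± 1.41 CPM in MSC and was higher in CD31+ cells (adjusted p = 1.5e-09). Egfr measured 481, 439.5 and 441 CPM in MSC and 0.85, 5.37 and 2.36 CPM in CD31+ cells (adjusted p = 4.02e-11). Hbegf, a ligand of that receptor, averaged 17.8 ± 4.44 CPM in CD31+ cells and 1.5 ± 0.725 CPM in MSC, 11.4-fold higher in CD31+ cells (adjusted p = 1.05e-05). Stem cell factor and its receptor were on the same side. Kitl averaged 214 ± 29.1 CPM in CD31+ cells and 15.3 ± 10.3 CPM in MSC (adjusted p = 2.26e-08), and Kit measured 19.3, 46.6 and 16.8 CPM in CD31+ cells with no count in MSC, at least 134-fold higher (adjusted p = 3.1e-05).

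Cytokine genes were higher in MSC for 12 of 23 tested and in CD31+ cells for Cxcl9, Cxcl12, Cx3cl1 and Il15 (median log2 difference -2.63, or -2.18 with genes without counts at their bound). The call of Il15 (adjusted p = 0.0248) was lost without MSC replicate 2, at 0.0536. Cxcl12, the ligand of Cxcr4 and a retention factor for blood progenitors, measured 5512, 4377 and 4704 CPM in CD31+ cells and 864, 1035 and 591 CPM in MSC, 5.86-fold higher in CD31+ cells (log2 2.55 ± 0.45, adjusted p = 0.000143). It was high in both populations, and the libraries did not overlap. Ackr3, a scavenger receptor for Cxcl12, was 4.05-fold higher in MSC (adjusted p = 2.74e-06), with 134, 91.2 and 124 CPM there and 28.3, 24.6 and 33.3 CPM in CD31+ cells. Cxcl14 measured 675, 561 and 808 CPM in MSC and 0 in each CD31+ library, at least 2642-fold higher (adjusted p = 8.06e-06). Ccl11, the eosinophil attractant eotaxin, measured 627, 528 and 984 CPM in MSC and gave 2 counts over the CD31+ libraries, a counting ratio of 4101 (95% interval 1135 to 33866). Il33, an alarmin, measured 200.2, 219 and 213 CPM in MSC and 0.213, 1.41 and 10.0 CPM in CD31+ cells, of which replicate 3 was highest. Its log2 difference was -5.88 ± 0.87 (adjusted p = 2.2e-05), -8.12 without CD31+ replicate 3 and -5.11 without CD31+ replicate 1. Csf1, the macrophage growth factor, was 4.52-fold higher in MSC (adjusted p = 4.06e-08). Cx3cl1, a membrane-bound chemokine, measured 118, 63.8 and 42.7 CPM in CD31+ cells and 10.7, 7.17 and 10.9 CPM in MSC, 7.81-fold higher in CD31+ cells (adjusted p = 2.58e-06).

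Cytokine receptors were divided as well. Osmr, the oncostatin M receptor, measured 419.6, 389 and 403 CPM in CD31+ cells and 121, 154 and 162 CPM in MSC, 2.77-fold higher in CD31+ cells (adjusted p = 0.000342). Lifr was 2.69-fold higher in CD31+ cells (adjusted p = 5.55e-06), and Il1r1 was 3.44-fold higher in MSC (adjusted p = 6.06e-06). Il6 measured 0, 0.847 and 1.47 CPM in CD31+ cells and 0, 0.672 and 0.666 CPM in MSC, levels near the limit that a count of 0 allows.

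Guidance cues were divided between the populations, also within families. Slit3 measured 439, 357 and 323 CPM in MSC and 13.6, 8.19 and 2.06 CPM in CD31+ cells, 44.9-fold higher in MSC (log2 -5.49 ± 0.62, adjusted p = 6.53e-07), and Robo4, an endothelial receptor of the Robo family, averaged 638 ± 55.6 CPM in CD31+ cells with 1 count in MSC. Robo1, a Slit receptor, was on the side of Slit3, with 15.8, 21.7 and 18 CPM in MSC and 0.85, 0.847 and 0.589 CPM in CD31+ cells (23.2-fold higher in MSC, adjusted p = 3.3e-07). Netrin 1 (Ntn1) was 13.2-fold higher in MSC (adjusted p = 2.71e-10), while Unc5b, a netrin receptor, was 6.64-fold higher in CD31+ cells (adjusted p = 9.5e-06). Sema3c averaged 366 ± 53.7 CPM in MSC and gave 1 count over the CD31+ libraries, whereas Sema3g averaged 82.2 ± 13.3 CPM in CD31+ cells and gave 1 count in MSC. Plxnd1, the endothelial semaphorin receptor, was 13.4-fold higher in CD31+ cells (adjusted p = 1.52e-12). Efna1 measured 620.2, 653 and 607 CPM in CD31+ cells and 15.1, 15.2 and 8.89 CPM in MSC, 47.6-fold higher (log2 5.57 ± 0.37, adjusted p = 1.46e-10). Efnb2 and its receptor Ephb4, known as an arterial and venous pair, were both higher in CD31+ cells, with adjusted p-values of 3.95e-08 and 1e-10. Of the 15 guidance receptors tested, 9 were higher in CD31+ cells and 5 in MSC.

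Junction genes were higher in CD31+ cells for 13 of 14 tested, with a median log2 difference of 5.68 (4.15 with genes without counts at their bound). Gja1, a connexin of many cell types and the only member that did not pass, measured 271, 201 and 258 CPM in CD31+ cells and 210.3, 222 and 166 CPM in MSC, with overlapping libraries. Tjp1, the scaffold protein ZO-1, measured 197, 178 and 215 CPM in CD31+ cells and 22.8, 23.1 and 21.8 CPM in MSC (8.71-fold, adjusted p = 8.18e-11), and Jam2 was 16.4-fold higher (adjusted p = 8.95e-11). Arterial and venous markers were both present in the CD31+ pool: 10 of 11 arterial and 8 of 9 venous genes were higher in CD31+ cells. The venous adhesion molecule Selp measured 82.7, 44.1 and 92.5 CPM in CD31+ cells, and the arterial connexin gene Gja5 101, 79.1 and 66.6 CPM. Lymphatic genes were uneven: of 5 tested, 2 were higher in CD31+ cells, 2 were higher in MSC and 1 did not pass. The 8 listed genes summed to 204 to 440 CPM in CD31+ cells and 473 to 526 CPM in MSC. Lyve1 varied between libraries, with 97.4, 10.7 and 0 CPM in CD31+ cells and 2.18, 0 and 0 CPM in MSC. Its call (adjusted p = 0.0103) was lost without CD31+ replicate 1, at 0.239, and with limma voom.

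MSC surface proteins included the endocytic receptor Lrp1, with 2202, 2056 and 2130.3 CPM in MSC and 8.93, 21.5 and 9.43 CPM in CD31+ cells, 162-fold higher in MSC (log2 -7.34 ± 0.28, adjusted p = 1.84e-14). Thy1, which encodes CD90, was 22.2-fold higher in MSC (adjusted p = 1.17e-10). Of 14 mesenchymal adhesion and surface genes, 11 were higher in MSC and Cdh2, Nt5e and Cd44 did not pass. Leukocyte adhesion genes were higher in CD31+ cells for 5 of 8 tested, against 22.8% of all genes tested. Icam1 and Vcam1 did not pass between the populations. Icam1 averaged 87.5 ± 10.4 CPM in CD31+ cells and 105 ± 10.2 CPM in MSC. Vcam1, a sort marker of MuSC, averaged 50.4 ± 2.81 and 62 ± 5.9 CPM, against 602 CPM in MuSC.

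Matrix genes were mostly on the MSC side: 13 of 15 fibrillar and associated collagens (median log2 difference -8.16), 11 of 11 small leucine-rich proteoglycans (-5.85), 17 of 20 elastic fiber and crosslinking genes (-5.08) and 18 of 20 matricellular genes (-6.30). None of these 66 genes was higher in CD31+ cells. Col5a1 measured 1159, 1207 and 990.1 CPM in MSC and 5.95, 1.69 and 3.54 CPM in CD31+ cells, 286-fold higher (log2 -8.16 ± 0.48, adjusted p = 5.94e-11). Fbn1, the microfibril protein fibrillin 1, measured 3042, 2897 and 2866 CPM in MSC and 94.6, 98.6 and 64.3 CPM in CD31+ cells, 34.2-fold higher (adjusted p = 2.59e-10). Smoc2, a calcium-binding matrix protein, averaged 5068 ± 774 CPM in MSC against 1 count over the CD31+ libraries. Genes of tendon cells were among those on the MSC side. Their summed level was 576 to 1451 CPM in MSC and 15.3 to 47.6 CPM in CD31+ cells, and 6 of 9 tested passed, among them Thbs4 at 253, 645 and 342 CPM. Tnmd, a defining tendon gene, measured 93.7, 83.3 and 20.2 CPM in MSC. The tendon factors Scx and Mkx were below 1 CPM in every library of both populations and did not pass (adjusted p = 0.929 and 0.839). The part of tendon cells in the matrix results was not tested.

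Basement membrane genes were less one-sided: 15 of 22 were higher in MSC, Lama3, Lama5 and Agrn were higher in CD31+ cells, and Col4a1, Col4a2, Hspg2 and Lamb3 did not pass. Laminin chains separated the populations by paralog. Lama5 measured 410.4, 307 and 357 CPM in CD31+ cells and 1.51, 0.448 and 1.78 CPM in MSC, 277-fold higher in CD31+ cells (log2 8.11 ± 0.34, adjusted p = 1.09e-14). Lama2, the chain of the muscle fiber's own laminin, measured 465, 467 and 559 CPM in MSC and 2.55, 5.08 and 1.77 CPM in CD31+ cells, 159-fold higher in MSC (log2 -7.31 ± 0.27, adjusted p = 4.77e-16). Col4a1, the collagen IV chain common to most basement membranes, measured 978, 1019 and 1004 CPM in CD31+ cells and 855, 738 and 1098 CPM in MSC, with overlapping libraries and an interval of -0.28 to 0.60 for the log2 difference.

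Receptors for this matrix were divided as well: of 18 integrins and related receptors, 8 were higher in each population. Itga6, a laminin-binding integrin chain, averaged 186 ± 24.2 CPM in CD31+ cells and 0.948 ± 0.344 CPM in MSC, 194-fold higher in CD31+ cells (adjusted p = 9.89e-10). Bcam, a receptor for Lama5, measured 968, 917 and 1103 CPM in CD31+ cells and 0.503, 4.48 and 0.666 CPM in MSC (adjusted p = 2.24e-12). Itga1, which binds collagen IV, was 19.7-fold higher in CD31+ cells (adjusted p = 4.94e-10). Ddr2, a receptor tyrosine kinase for fibrillar collagen, measured 724, 671 and 614 CPM in MSC and 21.5, 12.1 and 10.9 CPM in CD31+ cells, 44.2-fold higher in MSC (adjusted p = 4.05e-10). Among proteases, 13 of 18 genes were higher in MSC, and Mmp2, gelatinase A, measured 4996, 4706 and 3682 CPM there and 6.59, 12.1 and 9.43 CPM in CD31+ cells (480.4-fold, adjusted p = 5.92e-11). The inhibitor Timp4 was on the other side, with 2241, 1928 and 3328 CPM in CD31+ cells and 0.67, 1.34 and 0 CPM in MSC (adjusted p = 3.92e-09).

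**Figure D4:**
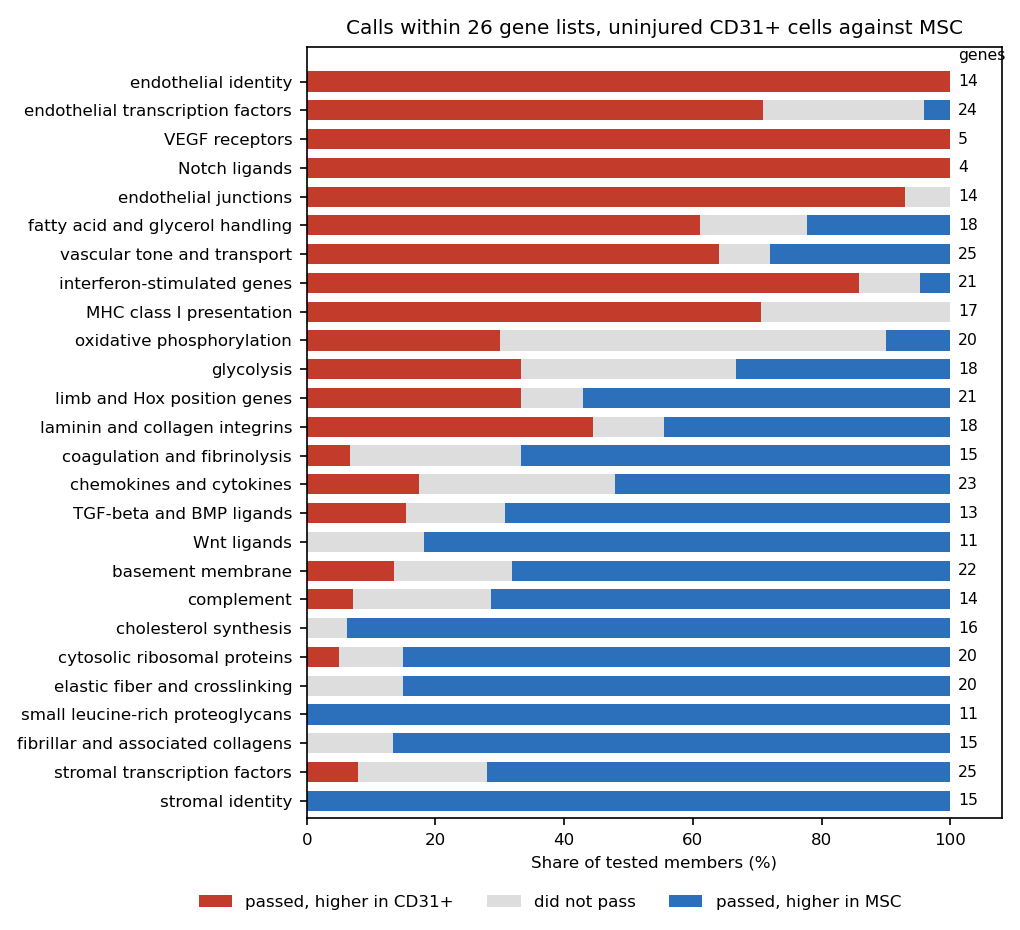
Share of the tested members of 26 gene lists, in percent, that passed as higher in CD31+ cells (red), did not pass (grey) or passed as higher in MSC (blue), with the number of tested genes at the right. Junction and interferon lists are mostly red, collagens and cholesterol synthesis mostly blue, and oxidative phosphorylation mostly grey.

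Handling of fatty acids and glycerol was led by CD31+ cells, with 11 of 18 genes higher there (median log2 difference 3.36). Cd36, the fatty acid translocase, measured 5223, 4506 and 6031 CPM in CD31+ cells and 4.52, 2.69 and 1.11 CPM in MSC (adjusted p = 8.2e-12). Gpihbp1 measured 1601, 1589 and 2128 CPM in CD31+ cells, at least 8716-fold higher than in MSC (adjusted p = 1.79e-06). Lpl, the lipoprotein lipase that Gpihbp1 carries, measured 926, 766 and 1600.4 CPM in CD31+ cells and 1679, 1339.9 and 1038 CPM in MSC, with overlapping libraries (adjusted p = 0.242, interval -0.70 to 0.10). Lipe, hormone-sensitive lipase, measured 427, 355 and 462 CPM in CD31+ cells and 28.7, 16.1 and 17.8 CPM in MSC, 19.7-fold higher in CD31+ cells (log2 4.30 ± 0.25, adjusted p = 3.17e-12). Pnpla2, adipose triglyceride lipase, was 5.81-fold higher in CD31+ cells (adjusted p = 4.04e-11), whereas the transporter Slc27a1 was 7.02-fold higher in MSC (adjusted p = 1.2e-06).

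Of 25 genes of vascular tone and transport, 16 were higher in CD31+ cells and 7 in MSC. Nos3, endothelial nitric oxide synthase, measured 181, 166 and 195 CPM in CD31+ cells and gave 2 counts over the MSC libraries, a counting ratio of 1347 (95% interval 373 to 11132). Cavin2, a coat protein of caveolae, was 62.3-fold higher in CD31+ cells (adjusted p = 4.83e-11). Ace, angiotensin-converting enzyme, measured 641, 556 and 472 CPM in MSC and 144, 122 and 102 CPM in CD31+ cells, 4.53-fold higher in MSC (log2 -2.18 ± 0.20, adjusted p = 4.1e-09). Ptgis, prostacyclin synthase, measured 191, 179.9 and 77.3 CPM in MSC and 1.91, 2.26 and 4.72 CPM in CD31+ cells, 51.6-fold higher in MSC (adjusted p = 1.76e-06). Each MSC library was above each CD31+ library for both enzymes.

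Coagulation genes were higher in MSC for 10 of 15, and Vwf, von Willebrand factor, was the only member higher in CD31+ cells. Vwf measured 531, 458 and 470.1 CPM in CD31+ cells and 1.01, 0 and 0.444 CPM in MSC (adjusted p = 2.05e-13). F3, tissue factor, which starts clotting, measured 736, 503 and 588 CPM in MSC and gave 3 counts over the CD31+ libraries, a counting ratio of 2412 (95% interval 825 to 11698). Plat, tissue plasminogen activator, was 5.52-fold higher in MSC (adjusted p = 1.49e-05) and Serpine2, a protease inhibitor, 155-fold higher (adjusted p = 3.51e-12). Thrombomodulin (Thbd) measured 252, 170.3 and 231 CPM in CD31+ cells and 227, 205 and 148 CPM in MSC and did not pass (adjusted p = 0.7, interval -0.46 to 0.80).

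Complement genes were higher in MSC for 10 of 14, and Cd59a, which blocks the membrane attack complex, was the only member higher in CD31+ cells (29-fold, adjusted p = 8.18e-11). C3 measured 1756, 1591 and 677 CPM in MSC and 0, 0.565 and 1.18 CPM in CD31+ cells (adjusted p = 6.66e-08), and the C1 inhibitor gene Serping1 averaged 7907 ± 1553 CPM in MSC and 47.7 ± 21.3 CPM in CD31+ cells (166-fold, adjusted p = 1.63e-06). Retinoid, steroid and detoxification enzymes were higher in MSC for 15 of 21. Aldh1a2, which makes retinoic acid, measured 282, 259 and 464 CPM in MSC, and Hsd11b1, which activates cortisone and its rodent counterpart, 299, 231 and 386 CPM. Both had 0 counts in each CD31+ library, which gave at least 1279.7-fold and 1184-fold higher levels in MSC (adjusted p = 2.28e-06 and 3.33e-11). Mt1, a metallothionein, averaged 204 ± 19.4 CPM in MSC and 0.578 ± 0.501 CPM in CD31+ cells (adjusted p = 8.73e-13). Fmo1, a flavin monooxygenase, was 2.57-fold higher in CD31+ cells (adjusted p = 0.000777).

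Central metabolism was close to even, with exceptions. Glycolysis genes divided 6 to 6 with 6 that did not pass (median -0.09), and oxidative phosphorylation gave 6 higher in CD31+ cells, 2 higher in MSC and 12 that did not pass (median 0.01). Over all genes tested, 22.8% were higher in CD31+ cells and 24.2% in MSC. Single enzymes stood further apart. Pfkl, the liver-type phosphofructokinase, measured 147, 138 and 141 CPM in CD31+ cells and 13.9, 14.8 and 22.4 CPM in MSC (8.36-fold, log2 3.06 ± 0.26, adjusted p = 1.15e-09). Pfkfb3, the endothelial activator of glycolysis, was 11-fold higher in CD31+ cells (adjusted p = 2.6e-08), while Hk2 averaged 10.1 ± 2.79 CPM in MSC and gave 1 count over the CD31+ libraries. Cholesterol synthesis was one-sided: 15 of 16 genes were higher in MSC (median log2 difference -2.17). Sqle, squalene epoxidase, measured 143, 88.7 and 98.6 CPM in MSC and 6.16, 7.06 and 8.55 CPM in CD31+ cells (15.3-fold, adjusted p = 5.84e-09). Srebf2, a regulator of sterol synthesis genes, was 4.38-fold higher in MSC (adjusted p = 4.86e-10). Ribosomal protein genes were higher in MSC for 17 of 20 by small steps (median log2 difference -0.57). Rplp0 measured 1577, 1519 and 1298 CPM in MSC and 751, 734 and 716 CPM in CD31+ cells (adjusted p = 1.35e-09). Reads of processed pseudogenes may be counted with these genes.

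Interferon-stimulated genes were higher in CD31+ cells for 18 of 21 (median log2 difference 1.91). Bst2, the tetherin restriction factor, measured 487, 472 and 544 CPM in CD31+ cells and 88.1, 73.5 and 87.1 CPM in MSC, 6.04-fold higher (log2 2.59 ± 0.16, adjusted p = 3.3e-12). Irf7, a regulator of interferon genes, was 4.93-fold higher in CD31+ cells (adjusted p = 9.51e-09). Ifi27 was the only member higher in MSC, with 449.6, 399 and 483 CPM there and 154, 156 and 143 CPM in CD31+ cells (2.94-fold, adjusted p = 2.8e-10). Antigen presentation by MHC class I followed, with 12 of 17 genes higher in CD31+ cells and none in MSC (median 1.39). H2-K1 measured 1837, 2188 and 2581 CPM in CD31+ cells and 834, 751 and 643 CPM in MSC (2.96-fold, adjusted p = 1.08e-08), and the immunoproteasome gene Psmb8 was 5.28-fold higher in CD31+ cells (adjusted p = 2.87e-11). H2 genes are near-identical in sequence, and how reads that match several of them were counted is not given in the sources used here. Summed leukocyte markers were 449.95 to 574 CPM in CD31+ cells and 12.7 to 21.7 CPM in MSC, mostly Srgn at 565, 438 and 474 CPM in CD31+ cells. Of 14 leukocyte genes, Srgn was the only member higher in CD31+ cells, Cd68 the only member higher in MSC, and 12 did not pass; Tyrobp, Cd3e and S100a8 were at 0 in MSC. The call of Cd68 (log2 -1.58 ± 0.46, adjusted p = 0.007) was lost without CD31+ replicate 1 or 2 and with only the libraries compared, at up to 0.0668, and its log2 difference was -2.53 without CD31+ replicate 3. The part of leukocytes in the interferon and MHC results was not tested.

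Immediate early and stress genes were higher in MSC for 9 of 25 and in CD31+ cells for Klf6, Hspb1 and Ier3. The call of Ier3 (adjusted p = 0.0422) was lost in 7 settings, among them without CD31+ replicate 1 or 3 and without MSC replicate 1 or 2, with an adjusted p of up to 0.158 in these and 0.16 with no filter on low counts. Fos measured 139, 88.7 and 171 CPM in CD31+ cells and 448, 336 and 510.5 CPM in MSC (3.24-fold higher in MSC, adjusted p = 6.45e-05), and Jun was 1.87-fold higher in MSC (adjusted p = 2.16e-05). Myc averaged 89.5 ± 5.64 CPM in MSC and 14.4 ± 0.499 CPM in CD31+ cells, 6.2-fold higher in MSC (adjusted p = 2.1e-12). Hspb1, a small heat shock protein, was 6.72-fold higher in CD31+ cells (adjusted p = 3.29e-07). Of 21 cell cycle genes, 16 did not pass, and Ccnd1, Cdkn1c, Mcm3, Mcm5 and Mcm6 were higher in CD31+ cells. Among all genes tested, 22.8% were higher in CD31+ cells and 24.2% in MSC. The cell cycle count in CD31+ cells was thus near the share of all genes, while none of the list was higher in MSC. The call of Mcm5 (adjusted p = 0.00882) was lost with limma voom, at 0.0862. Cyclin D1 (Ccnd1) measured 69.3, 59.3 and 42.4 CPM in CD31+ cells and 32.3, 20.8 and 21.8 CPM in MSC (2.27-fold, adjusted p = 2.36e-05).

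Imprinted growth genes were higher in MSC for 8 of 14 tested and higher in CD31+ cells for 2, and 4 did not pass. Over all genes tested, 24.2% were higher in MSC and 22.8% in CD31+ cells. Ndn, the growth suppressor necdin, measured 719.9, 670.3 and 642 CPM in MSC and 5.53, 12.4 and 7.07 CPM in CD31+ cells, 82.4-fold higher (log2 -6.36 ± 0.33, adjusted p = 1.41e-12). Meg3, a long noncoding RNA that hosts microRNAs, measured 355, 374 and 407 CPM in MSC and 2.13, 5.08 and 1.18 CPM in CD31+ cells, 136-fold higher (adjusted p = 1.08e-12).

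Several host genes of microRNAs differed between the populations. RefSeq hairpins lay within 508 of the tested genes. The mature sequences of 4 microRNAs with hosts far apart in level are shown, on GRCm38.p6 with the seed (bases 2 to 8) in capitals. These were chosen after the levels of their hosts were seen.
mmu-miR-126a-3p: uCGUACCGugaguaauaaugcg
mmu-miR-139-5p: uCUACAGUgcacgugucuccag
mmu-miR-99a-5p: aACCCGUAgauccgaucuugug
mmu-miR-218-5p: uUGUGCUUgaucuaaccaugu
No 2 of these share a seed. Egfl7, an endothelial secreted protein that hosts miR-126a (chr2:26591402-26591423, plus strand), measured 3504, 3456 and 3814 CPM in CD31+ cells and gave 3 counts over the MSC libraries, a counting ratio of 17819 (95% interval 6097 to 86410.0). Pde2a, a cyclic nucleotide phosphodiesterase that hosts miR-139 (chr7:101475382-101475403, plus strand), measured 21.3, 17.5 and 33.3 CPM in CD31+ cells and gave 1 count in MSC. Mir99ahg, the noncoding host of miR-99a (chr16:77598940-77598961, plus strand), measured 83.6, 113 and 78.4 CPM in MSC and 1.49, 3.11 and 0 CPM in CD31+ cells (adjusted p = 1.74e-10). Slit3, given above with the guidance cues, hosts miR-218 (chr11:35616840-35616860, plus strand). The libraries hold polyadenylated RNA, so the mature microRNAs themselves were not measured, and Agpat2 overlaps Egfl7 on the opposite strand.

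Markers of other cell types were read in both pools. The 4 mural genes (pericytes and smooth muscle) higher in MSC were Cspg4, Abcc9, Ndufa4l2 and Steap4. Acta2, smooth muscle actin, measured 363, 395 and 304 CPM in CD31+ cells and 5.19, 10.8 and 8 CPM in MSC (45-fold, adjusted p = 1.9e-07). Satellite cell markers summed to 47.7 to 76.3 CPM in CD31+ cells and 430.5 to 485 CPM in MSC, where Sdc4 and Peg3 passed as higher in MSC and Myf5, Myod1 and Chrdl2 were at 0. Muscle fiber genes summed to 392 to 545 CPM in CD31+ cells and 264 to 589 CPM in MSC. Schwann cell genes summed to 87.6 to 99.6 CPM and 1576 to 1747 CPM, mostly Pmp22 at 1718, 1547 and 1555 CPM in MSC, while the defining Schwann gene Sox10 was at 0 in MSC. Red cell and platelet genes varied between libraries of 1 population, from 16.7 to 449 CPM in CD31+ cells, and Hbb-bs, a hemoglobin chain, measured 143, 1.98 and 254 CPM there. The parts of these cell types in the results were not tested.

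The same contrast was then read in the injured libraries, 1 day after cardiotoxin, which share the estimate of spread with the uninjured contrast but none of its libraries. CD31+ cells were higher than MSC for 4513 genes (27.8%) and lower for 3865 (23.8%). Of the 3707 genes higher in uninjured CD31+ cells, 2771 were again higher there (74.8%), as were 2661 of 3936 on the MSC side (67.6%), and 216 genes were called in opposite directions. The difference itself changed with injury for 2044 genes (12.6%). For Cxcl12 the log2 difference of 2.55 at rest moved by -0.05 ± 0.60 (SE), which did not pass (adjusted p = 1). Ly6a stood at 2869 ± 308 CPM in injured CD31+ cells and 2029 ± 479.9 CPM in injured MSC, and its change did not pass (adjusted p = 0.388).

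Several genes read in both populations at rest were among those whose difference changed. Tek stood at 11.3 ± 2.95 CPM in injured MSC and 167 ± 20.3 CPM in injured CD31+ cells, so that the log2 difference moved from 1.49 to 3.88 (change 2.38 ± 0.50, adjusted p = 0.00344). Klf4 changed sides, from -1.60 to 1.35 (change 2.95 ± 0.25, adjusted p = 2.82e-08), with 116 ± 12.8 CPM in injured CD31+ cells and 45.2 ± 14.1 CPM in injured MSC. Lpl, which did not pass at rest, was higher in injured CD31+ cells, at 789 ± 70.4 CPM against 246 ± 9.03 CPM (change 1.98 ± 0.29, adjusted p = 9.6e-05). Fbln5, a shared gene at rest, stood at 553 ± 73.5 CPM in injured CD31+ cells and 89.1 ± 24.4 CPM in injured MSC (change 3.25 ± 0.39, adjusted p = 1.4e-05). Angpt2 moved further toward CD31+ cells, with 328 ± 85 CPM against 4.04 ± 2.04 CPM after injury (change 4.18 ± 0.61, adjusted p = 0.000116). The replication factor Mcm3 moved the other way, from 1.38 to -1.96 (change -3.34 ± 0.24, adjusted p = 1.87e-09), with 462 ± 94.5 CPM in injured MSC and 119 ± 10.9 CPM in injured CD31+ cells. Injured libraries hold the cells that carried the markers at day 1, which need not be the same cells as at rest.

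**Figure D5:**
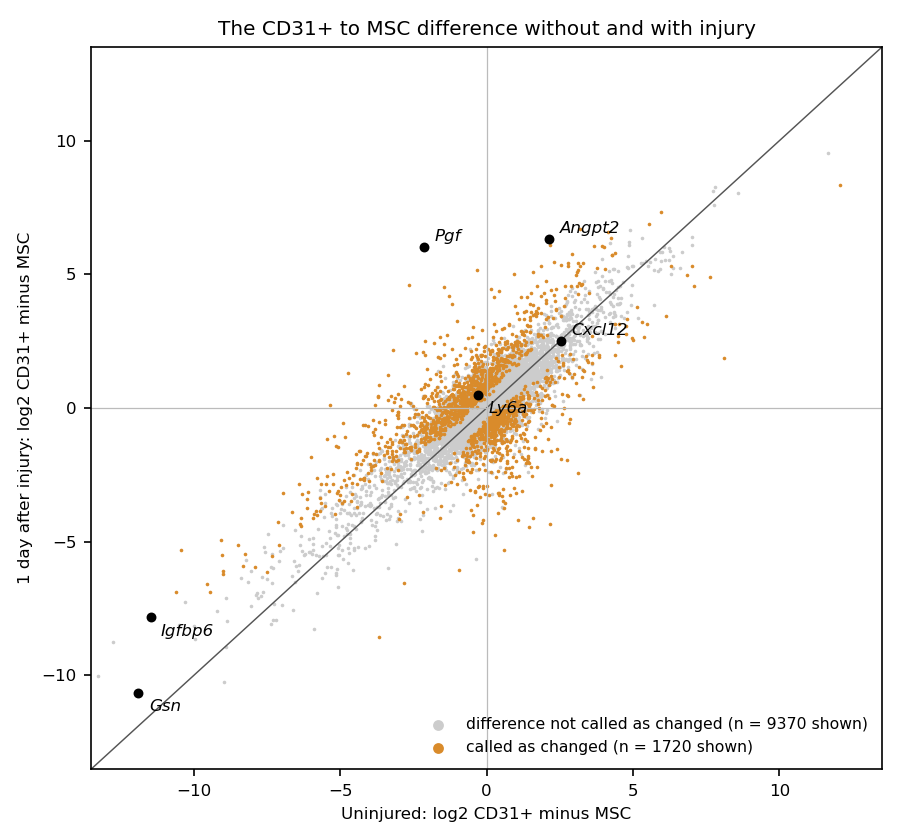
Log2 difference, CD31+ minus MSC, in uninjured (horizontal axis) and injured libraries (vertical axis) for 11090 genes with at least 1 CPM in each of the 4 groups, with the line of equal difference. Orange points (n = 1720) are genes whose difference was called as changed. Grey points (n = 9370) were not called. Pgf and Angpt2 lie far above the line, Cxcl12 close to it, and Ly6a near 0 on both axes.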

How the data were processed

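RNA of sorted cells was sequenced as paired short reads without strand marking or molecular identifiers, per the labels' protocols. The authors deposited raw read counts per gene symbol, and the submitters' processing notes name STAR 2.5.4, featureCounts and mm10; for the annotation and the treatment of reads with several matches, nothing was stated there. All 24 libraries (8 groups of 3) were fitted together with edgeR 4.0.16 (R 4.3.3), with TMM scaling, filterByExpr and the robust quasi-likelihood test; 16263 of 52997 symbols were tested, and p-values were Benjamini-Hochberg adjusted over all of them at 0.05. Total counts were 3245117 to 7649841 in the 6 libraries compared. SE is the log2 difference over the square root of F, and intervals are 1.96 SE. Folds against a group without counts used 3 counts over the group. On simulated data for 15629 genes, 47.5% of 99 genes changed 2-fold and 69% of 100 changed 4-fold were recovered, and 4.13% of 121 calls were false. Both populations were simulated from the CD31+ profile and only a small set of genes was changed, whereas 47.0% were called in the data. The recovered shares therefore do not give the power of the comparison itself.

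Alternatives were RLE scaling, other filters, DESeq2 1.42.0, limma voom 3.58.1, fewer libraries, a replicate block and leaving out each library. The numbers of the libraries were not treated as pairs. Coordinates are from GENCODE vM21 (49365 symbols matched), and sequences from RefSeq on GRCm38.p6. Genes were named by a rule: the sort genes, the 15 largest differences in each direction with at least 50 CPM, all members of lists of up to 12 genes and up to 6 per direction of longer lists by adjusted p, the 12 strongest shared, the 12 most abundant similar and 4 injury-dependent genes per direction. List members that did not pass or ran against their list, Pde2a and Mir99ahg were named after their values were seen. The members and lists were chosen with earlier results of these data known. Results for a few list members are not reported here.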

Additional observations from a re-analysis of the deposited data

Results flagged for a closer look

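The difference between CD31+ cells and MSC changed between uninjured muscle and 1 day after cardiotoxin for 2044 genes (12.6% of 16263), by a test of the difference itself in edgeR's quasi-likelihood model. The 4 largest changes in each direction among genes with at least 50 CPM in a group were these, as log2 changes (injured minus uninjured). Toward CD31+ cells, Ighm, an immunoglobulin heavy chain, changed by 11.33 (adjusted p = 0.000285). It measured 85.5, 73.9 and 22.9 CPM in uninjured MSC, 0.85, 0 and 0.295 CPM in uninjured CD31+ cells, and 11.7 ± 10.4 CPM (SD, n = 3) in injured CD31+ cells. Il1r2, a decoy receptor for interleukin 1, changed by 9.24 (adjusted p = 0.0429). Pgf changed by 8.14 (adjusted p = 1.13e-08), to 692 ± 214 CPM in injured CD31+ cells and 10.8 ± 3.84 CPM in injured MSC. Hsd11b1 changed by 6.07 (adjusted p = 0.0317), where uninjured CD31+ cells had no count and injured CD31+ cells 1.21 ± 1.35 CPM. Log2 changes for genes without counts in a group depend on the prior count of the fit.

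Toward MSC, Steap1, a metalloreductase, changed by -10.17 (adjusted p = 0.00543), with 146 ± 2.97 CPM in injured MSC and no count in injured CD31+ cells. Car4, a membrane-bound carbonic anhydrase, changed by -7.49 (adjusted p = 5.21e-05), with 20.5 ± 4.1 CPM in injured MSC. The cell cycle genes Ccna2 and Cdk1 changed by -7.14 (adjusted p = 0.0232) and -6.52 (adjusted p = 0.00125), and their levels in injured MSC varied widely, at 70.8 ± 61.1 and 85.8 ± 54.4 CPM.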

How the results depend on the processing

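The counts over all genes stayed within 1.5 times of their main values under each alternative run, and no named gene reversed. Genes higher in CD31+ cells (3707) ranged from 3323 (only the libraries compared) to 3727 (limma voom), and genes higher in MSC (3936) from 3477 to 4136 (DESeq2). Without 1 library the ranges were 3404 to 3958 and 3175 to 3623, genes of similar level (801) were 772 to 791, shared genes (700) 501 to 676, same-direction genes (5432) 5048 to 5197 and injury-dependent genes (2044) 1680 to 1805. DESeq2 gave 2689 injury-dependent genes. With RLE scaling, CD31+ cells held 46.8% of the calls, against 48.5%. Of 456 named genes that passed, 401 passed in every setting that tested them and 55 did not. With at least 5 CPM in 3 libraries, 445 of the 456 were tested, and with only the libraries compared 446 were. Of 372 fitted folds, 106 moved by over 1.5 times without 1 library, 90 of these with under 5 CPM in the lower population. Deviations of equally numbered libraries correlated at 0.0656, 0.0173 and 0.0699, each the highest for its libraries. All lay under 0.1, and the main fit was not blocked. These values do not settle whether equal numbers mark the same mouse. With a replicate block, 3624 genes were higher in CD31+ cells, 3870 in MSC, 804 similar, 692 shared, 5344 in the same direction and 1957 injury-dependent. Depth limits levels below about 0.884 CPM.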

Other observations

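Among unnamed gene models, Gm10800, which was chosen after its values were seen, made up 7.68%, 4.93% and 5.74% of all counts in the CD31+ libraries and 0.666%, 0.764% and 0.835% in the MSC libraries (log2 difference 2.70 in Gm10800, adjusted p = 1.57e-10 with edgeR). How reads that match several places were counted is not given in the sources used here. Gsn held 0.00310%, 0.00419% and 0.00172% of the counts in the CD31+ libraries.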
